A study of Mus musculus with 6 samples.

Results

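The genes described are the lytic granule proteases Gzma, Gzmb, Gzmc, Gzmd, Gzme, Gzmf, Gzmg and Gzmk and the pore-forming protein Prf1, measured in whole mammary tumours of Balb/c mice. They were taken by name from the authors' RPKM table (reads scaled to transcript length and to the library's total), and all 9 had a row among the table's 23381 genes. They were picked with the difference between the treatment groups already known, so their own values are a description and carry no test. The tumours were raised by injecting 500000 4T1 cells, a mouse mammary carcinoma line of Balb/c origin, into the inguinal mammary fat pad, and the labels give the mice as 10 weeks old. The Vismodegib group (3 libraries) got 2 mg of this Smoothened inhibitor per mouse on a schedule of 3 doses a week over 3 weeks. The DMSO group (3 libraries) got the solvent on that schedule. The cells and the host strain were shared by both groups, and RNA came from whole frozen tumours, in which tumour, stromal and immune cells are mixed. Nothing in the labels says that each library came from its own mouse, so the spread between libraries may be partly technical.

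Cytotoxic T cells and natural killer (NK) cells kill by emptying granules onto a target cell. Perforin, the product of Prf1, opens the target's membrane, and granzymes pass through and cleave proteins inside it. Granzyme B cuts after aspartate and starts the caspase cascade, and granzymes A and K cut after basic residues. Granzymes C, D, E, F and G belong to rodents, have no direct human counterpart and are known from mouse T and NK cells that have been activated for some time. In bulk tumour RNA, fewer cytotoxic cells and less granzyme RNA per cell cannot be told apart.

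The granzyme genes of the B type lie side by side on chromosome 14, all on the minus strand, over 144.6 kb (build mm10, GENCODE M21 annotation). In order of coordinate these are Gzme (56117626 to 56120625), Gzmd (56129556 to 56132608), Gzmg (56156582 to 56159579), Gzmf (56205263 to 56211417), Gzmc (56231441 to 56234656) and Gzmb (56258838 to 56262260). Gzmn, a granzyme gene outside the set, sits between Gzmg and Gzmf, and an exon of the antisense gene Gm4022 covers a whole exon of Gzmf. The use of strand in counting is not stated, so reads of Gm4022 and Gzmf from that exon cannot be told apart. Gzma and Gzmk are neighbours on chromosome 13, at 113093825 to 113100981 and 113171608 to 113225908, and Prf1 is on chromosome 10 at 61297833 to 61304680.

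Gzmd, Gzme, Gzmf and Gzmg are close to each other in sequence, and Gzmc is less close to them. This bears on how far their reads can be told apart. The first 90 coding bases of the 5 GENCODE M21 transcripts are shown, with capitals at the 14 positions that are not the same in all 5.
Gzmc: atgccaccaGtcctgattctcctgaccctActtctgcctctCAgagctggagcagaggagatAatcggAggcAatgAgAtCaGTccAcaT
Gzmd: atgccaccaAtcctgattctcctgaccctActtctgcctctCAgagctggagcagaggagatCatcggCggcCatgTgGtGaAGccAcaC
Gzme: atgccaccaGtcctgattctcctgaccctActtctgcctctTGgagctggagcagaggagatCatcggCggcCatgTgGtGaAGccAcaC
Gzmf: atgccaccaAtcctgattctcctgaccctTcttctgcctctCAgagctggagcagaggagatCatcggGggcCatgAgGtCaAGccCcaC
Gzmg: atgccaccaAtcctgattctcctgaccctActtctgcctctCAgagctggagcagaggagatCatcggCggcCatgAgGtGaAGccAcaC
Over the whole coding sequence, Gzmd and Gzme were identical at 93.25% of aligned bases, Gzme and Gzmg at 89.5% and Gzmf and Gzmg at 86.85%. Gzmc was closest to Gzmb, at 76.2%, and reached 71.6% to 73.4% with the other 4. No stretch of 150 bases, the length of 1 read, occurred in the reference transcript of any of the 9 genes and also in a transcript of another gene. At 50 bases, the share of stretches found in another gene's transcript was 21.9% for Gzmd, 20.65% for Gzme, 19.8% for Gzmg, 7.36% for Gzmf, 4.14% for Gzmc and 0% for Gzma, Gzmb, Gzmk and Prf1. These sequences are of the reference strain, not of Balb/c.

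The values of the 6 clustered genes resolved into whole reads, which gives the depth behind them. With library totals of 41600000, 42700000 and 58000000 reads in Vismodegib replicates 1, 2 and 3 and 37500000, 34800000 and 40500000 in DMSO replicates 1, 2 and 3, recovered from the steps of low values, all 6 values of each of Gzmb, Gzmc, Gzmd, Gzme, Gzmf and Gzmg lay within 0.05 of a whole number. Gzmg then rested on 14, 20 and 0 reads in the Vismodegib libraries and on 24, 894 and 207 in the DMSO libraries. Gzmf rested on 50, 75 and 24 reads in Vismodegib and on 28, 1246 and 280 in DMSO. These are counts of reads and not of molecules, and whether a read or a pair was the unit counted is not stated. The recovered totals would also give whole numbers if each were too high by a whole factor.

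Granzyme A was the most abundant of the 9 transcripts in every library. Gzma read 32.6, 48.2 and 25.9 RPKM in replicates 1, 2 and 3 of Vismodegib, against 16.8, 91.35 and 42.02 RPKM in DMSO replicates 1, 2 and 3. The Vismodegib libraries lay between the lowest and the highest DMSO library. Gzmb, which encodes the caspase-activating granzyme, was at 11.7, 8.17 and 7.60 RPKM in Vismodegib and at 5.225, 30.4 and 14.8 RPKM in DMSO. It had the same layout, with DMSO replicate 1 lowest and DMSO replicate 2 highest of all 6. Gzmk, the other tryptase-like granzyme, had the lowest mean of the 9 over all 6 libraries, at 0.242, 0.421 and 0.310 RPKM in Vismodegib and 0.442, 0.888 and 0.267 RPKM in DMSO.

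Gzmc, Gzmd and Gzme, the orphan granzymes of middling level, again had Vismodegib values inside a wide DMSO range. Gzmc was at 9.89, 10.4 and 19.7 RPKM in Vismodegib and at 7.705, 27.9 and 16.9 RPKM in DMSO. Gzme was at 12.35, 9.86 and 5.01 RPKM in Vismodegib and at 4.955, 17.7 and 8.42 RPKM in DMSO. For both, DMSO replicate 1 was the lowest and DMSO replicate 2 the highest library. Gzmd was nearly level in Vismodegib, at 4.71, 5.49 and 4.955 RPKM, while DMSO had 3.27, 35.1 and 12.6 RPKM. Its DMSO range was 10.75-fold.

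Gzmf and Gzmg stood out by how far they moved. Gzmf was at 1.31, 1.91 and 0.450 RPKM in Vismodegib, against 0.8135, 38.9 and 7.53 RPKM in DMSO. Thus DMSO replicate 1 fell inside the Vismodegib range and the other 2 DMSO libraries lay above it. Gzmg stood at 0.370 RPKM in Vismodegib replicate 1, 0.515 RPKM in replicate 2 and 0 in replicate 3, against 0.705, 28.2 and 5.63 RPKM in DMSO. The groups did not overlap, but DMSO replicate 1 sat close to the Vismodegib libraries. For the 909 bases of the Gzmg transcript, 3 reads in Vismodegib replicate 3 would be 0.0569 RPKM. Measured against that floor, taken per library, Vismodegib replicate 3 was at least 496-fold lower than DMSO replicate 2 and at least 12.4-fold lower than DMSO replicate 1.

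Perforin moved within narrower bounds. Prf1 was at 1.44, 1.78 and 1.715 RPKM in Vismodegib and at 2.28, 3.45 and 3.25 RPKM in DMSO. All 3 Vismodegib libraries lay below all 3 DMSO libraries, and Prf1 and Gzmg were the 2 members of 9 with such a gap. Tested were the 11818 genes that averaged 0.5 RPKM or more, and among them all Vismodegib libraries lay below all DMSO libraries in 0.745%. No weight is put on this comparison, since the genes were chosen from that contrast.

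**Figure D1:**
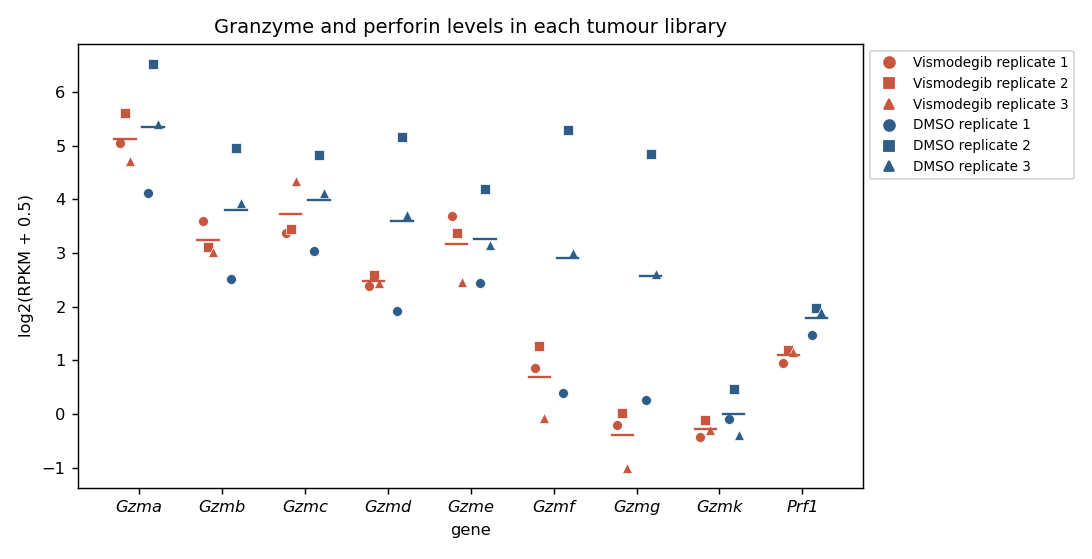
Level of each gene in each library as log2(RPKM + 0.5), with the mean of each group of 3 as a line; red is Vismodegib, blue is DMSO, and the marker shape gives the replicate number. DMSO replicate 2 (blue squares) is the highest point for all 9 genes, and in Gzmf and Gzmg the DMSO points spread over 4.91 and 4.58 log2 units.

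On the log2(RPKM + 0.5) scale, where the change of a low gene is understated, limma's differences (Vismodegib minus DMSO) were below 0 for all 8 members that passed the filter, and Gzmk did not pass it. Over all genes tested, 41.6% were below 0. The differences were -2.97 (SE 0.95) for Gzmg, -2.22 (SE 1.02) for Gzmf, -1.12 (SE 0.68) for Gzmd, -0.69 (SE 0.26) for Prf1 and -0.55 (SE 0.54) for Gzmb. They were closer to 0 for Gzmc, Gzma and Gzme, at -0.28, -0.22 and -0.09 with SE of 0.47, 0.55 and 0.48. The median of the 8 was -0.62, that of Gzmc to Gzmg was -1.12, and that of all genes tested was 0.05. Of the 8, 0 passed at an adjusted p under 0.05, and the same held for 0% of all genes tested.

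These differences leaned on single DMSO libraries. Without DMSO replicate 2, 4 of the 8 differences were below 0. Gzma, Gzmb, Gzmc and Gzme turned to 0.36, 0.02, 0.14 and 0.37, the median of the 8 was -0.16 and that of Gzmc to Gzmg was -0.34. Without DMSO replicate 1, the median of the 8 was -1.02 and that of Gzmc to Gzmg was -1.96. In that fit 19 genes passed limma's test, Gzmg (difference -4.12) among them, which carries no weight for a gene chosen from this contrast. Gzmd and Gzmf ran from -1.96 and -3.47 without DMSO replicate 1 to -0.34 and -1.02 without DMSO replicate 2. Without Vismodegib replicate 3, the difference of Gzme turned to 0.26. Prf1 kept a difference between -0.85 and -0.59 whichever library was left out.

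The pattern that the members shared was an ordering of the DMSO libraries. All 9 were highest in DMSO replicate 2, where 29.8% of all genes tested had their highest value. Of the 8 tested members, Gzmb, Gzmd, Gzmf and Gzmg (4) were at least 3 times higher there than the median of the other 5 libraries, as were 2.79% of all genes tested. Gzmf and Gzmg (2 of 8) were at least 10 times higher there than in Vismodegib replicate 3, as were 0.905% of all genes tested. In 8 of 9 the DMSO libraries ran in the order replicate 2, replicate 3, replicate 1, with Gzmk as the exception, and the same order held in 33.5% of all genes tested. The SD over the DMSO libraries exceeded that over the Vismodegib libraries in all 9. In Gzmd, the averages were 5.05 ± 0.398 RPKM in Vismodegib and 16.99 ± 16.4 RPKM in DMSO, and in Gzmb 9.14 ± 2.20 and 16.8 ± 12.7 RPKM (mean ± SD, n = 3 libraries each). In 5 members, DMSO replicate 1 was below every Vismodegib library. For this count and for that of the SDs, the share over all genes tested was not taken. No weight is put on either count.

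Summed over the 8 granzymes, the level was 73.1, 84.9 and 63.9 RPKM in Vismodegib and 39.9, 270.6 and 108 RPKM in DMSO. DMSO replicate 2 thus held 6.78 times the sum of DMSO replicate 1, 2.50 times that of DMSO replicate 3 and 3.19 times the highest Vismodegib library. The RPKM total over all genes was also highest in DMSO replicate 2. As a share of that total, the granzymes made up 0.01895%, 0.0227% and 0.0174% in Vismodegib and 0.0123%, 0.0625% and 0.0312% in DMSO, so the ordering held as a share too.

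The make-up of the granzyme RNA differed between the libraries along with its amount. Gzmf and Gzmg together were 2.29%, 2.855% and 0.705% of the granzyme sum in Vismodegib, against 3.80%, 24.8% and 12.2% in DMSO. Gzma was 44.6%, 56.7% and 40.5% of the sum in Vismodegib and 42.1%, 33.8% and 38.9% in DMSO. The ratio of Gzmb to Gzma stayed between 0.311 and 0.3515 over the DMSO libraries, while the ratio of Gzmf to Gzmc was 0.106, 1.39 and 0.445 in DMSO replicates 1, 2 and 3. In Vismodegib, Gzmb to Gzma ran from 0.1695 to 0.358 and Gzmf to Gzmc from 0.0229 to 0.184. Granzyme RNA per perforin RNA was 50.7, 47.6 and 37.3 in Vismodegib and 17.5, 78.3 and 33.2 in DMSO. The Prf1 difference thus did not track the granzyme sum library by library.

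**Figure D2:**
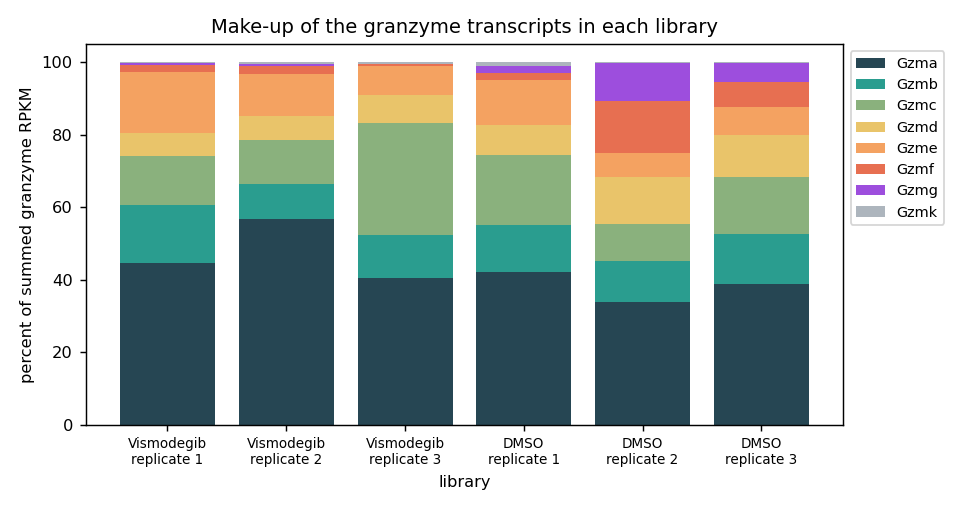
Share of each granzyme gene in the summed granzyme RPKM of each library, in percent, with the Vismodegib libraries left of the DMSO libraries. Gzmf and Gzmg take up 24.8% in DMSO replicate 2 and 12.2% in DMSO replicate 3, and between 0.705% and 3.80% in the other 4 libraries.

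Gzmd, Gzmg and Gzmf, in the inner part of the cluster, varied more than Gzme, Gzmc and Gzmb toward its ends, and Gzmn was near the floor of 3 reads. On the log2 scale, the range over the 6 libraries was 5.84 for Gzmg and 5.37 for Gzmf. Gzmn, which lies between them, was at no more than 0.146 RPKM anywhere, or 6 reads, and was at 0 in Vismodegib replicate 3 and DMSO replicate 1. The outer genes had ranges of 1.74 for Gzme, 1.79 for Gzmc and 2.43 for Gzmb, and Gzmd had 3.24. On the far side of Gzme lie Ctsg, the neutrophil granule protease cathepsin G, and the mast cell and basophil proteases. Ctsg was at 0 in all 3 Vismodegib libraries and at 0.0259, 0.278 and 0.0479 RPKM in DMSO. Mcpt8, a basophil protease and the next gene along, was at 37.2, 14.8 and 3.06 RPKM in Vismodegib and at 11.99, 2.67 and 6.91 RPKM in DMSO, so it was lowest where the granzymes were highest. Mcpt1, made by mucosal mast cells, was at 10.9, 20.9 and 4.25 RPKM in Vismodegib and 4.50, 19.8 and 32.6 RPKM in DMSO. Cma2, also on that side, was at 0.743, 2.58 and 0.282 RPKM in Vismodegib and 0.267, 5.80 and 4.41 RPKM in DMSO. Unlike Mcpt8 and Mcpt1, it was highest in DMSO replicate 2, as were 29.8% of all genes tested. It had the granzymes' order of DMSO libraries, as had 33.5%. Ctsg, near the floor of 3 reads, was also highest in DMSO replicate 2 and had that order.

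**Figure D3:**
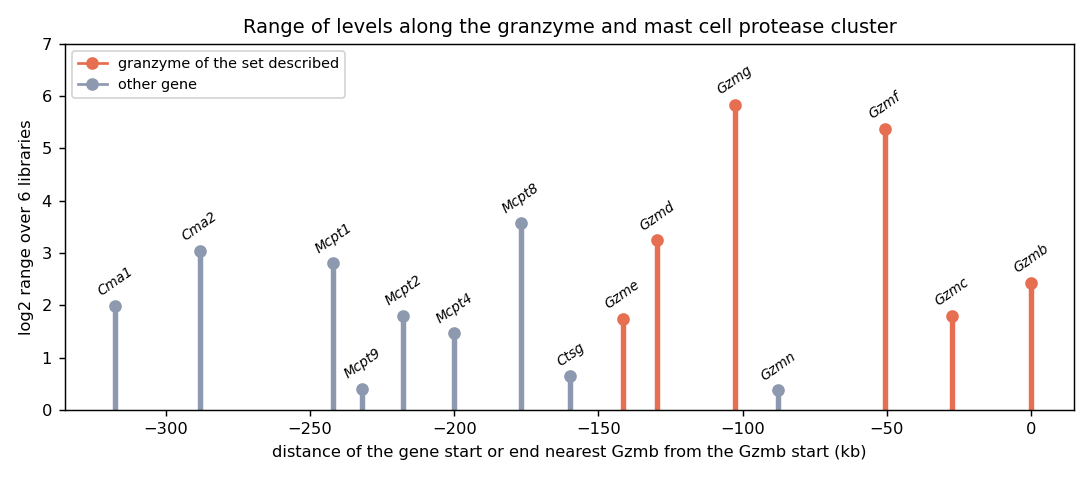
Range of log2(RPKM + 0.5) over the 6 libraries for the genes of the chromosome 14 protease cluster, against distance from the Gzmb start in kb; orange marks the granzymes described, grey the other genes. The tallest lines, 5.84 and 5.37, are Gzmg and Gzmf, on either side of Gzmn at 0.37.

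Promoter sequences were compared because Gzmc to Gzmg shared the ordering of libraries but not its size. For each gene, 250 bases before to 50 after the RefSeq start are printed on the gene's strand (RefSeq, GRCm38.p6). Capitals mark 2 motifs found on either strand, TGACGTCA (the cyclic AMP response element) and TGTGGT or its reverse complement ACCACA (the RUNX core). RUNX factors are known to act in cytotoxic T cells.
Gzmg, chr14:56159530-56159829: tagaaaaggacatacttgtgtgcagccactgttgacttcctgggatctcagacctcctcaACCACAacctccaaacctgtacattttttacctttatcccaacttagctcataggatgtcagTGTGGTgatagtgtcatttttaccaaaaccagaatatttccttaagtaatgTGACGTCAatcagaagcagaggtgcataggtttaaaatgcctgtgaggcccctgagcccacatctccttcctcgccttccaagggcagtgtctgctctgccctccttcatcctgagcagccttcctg
Gzmf, chr14:56211358-56211657: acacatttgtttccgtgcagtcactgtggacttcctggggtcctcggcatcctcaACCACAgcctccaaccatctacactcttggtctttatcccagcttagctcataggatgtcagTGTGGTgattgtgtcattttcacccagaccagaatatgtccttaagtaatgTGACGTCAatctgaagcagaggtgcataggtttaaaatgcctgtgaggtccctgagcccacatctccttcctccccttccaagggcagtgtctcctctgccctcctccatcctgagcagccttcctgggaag
Gzmd, chr14:56132544-56132843: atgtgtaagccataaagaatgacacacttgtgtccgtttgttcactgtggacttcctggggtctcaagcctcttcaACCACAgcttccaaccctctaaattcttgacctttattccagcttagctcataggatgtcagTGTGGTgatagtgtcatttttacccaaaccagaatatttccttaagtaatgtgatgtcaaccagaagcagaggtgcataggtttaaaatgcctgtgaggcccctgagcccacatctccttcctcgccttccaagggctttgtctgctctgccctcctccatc
Gzme, chr14:56120576-56120875: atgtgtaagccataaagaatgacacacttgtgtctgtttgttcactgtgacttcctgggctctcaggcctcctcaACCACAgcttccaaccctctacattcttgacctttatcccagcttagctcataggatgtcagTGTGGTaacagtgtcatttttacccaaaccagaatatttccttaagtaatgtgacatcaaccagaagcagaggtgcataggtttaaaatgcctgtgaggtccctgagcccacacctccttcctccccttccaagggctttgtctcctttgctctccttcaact
Gzmc, chr14:56234608-56234907: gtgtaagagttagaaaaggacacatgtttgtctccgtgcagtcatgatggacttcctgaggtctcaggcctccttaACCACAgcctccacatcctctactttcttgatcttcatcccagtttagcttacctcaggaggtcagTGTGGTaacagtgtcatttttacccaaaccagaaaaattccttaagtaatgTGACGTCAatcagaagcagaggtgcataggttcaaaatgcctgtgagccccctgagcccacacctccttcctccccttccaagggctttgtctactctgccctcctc
Gzmd and Gzme were identical at 93.4% of aligned promoter bases, Gzmf and Gzmg at 84.5%, and the Gzmb window reached at most 49.5% with any of these 5. All 5 windows held 2 matches to the RUNX core, as did that of Gzmb, while Gzma and Prf1 held 1 each and Gzmk held 0. At least 1 match was present in 16.8% of 32851 promoters of that length. Since the 5 windows are related in sequence, their matches are not independent of each other. The response element TGACGTCA stood in Gzmc, Gzmf and Gzmg and in 1.79% of all promoters, and these letters were absent from the windows of Gzmd and Gzme, as from those of Gzma, Gzmb, Gzmk and Prf1. Gzmf and Gzmg, with the widest ranges, and Gzmc, with one of the narrowest, thus all carried it. A further 3 motifs were searched on both strands. TGANTCA, the AP-1 site, was found in Gzmb among the 9 (7.81% of all promoters), TTCNNNGAA, the STAT site, also in Gzmb (8.30%), and AGGTGT, the core of a T-box site, in Gzma, Gzmc, Gzme, Gzmk and Prf1 (13.7%). A match in a window is a run of letters and not evidence of binding.

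Markers of T cells and NK cells had the granzymes' order of the DMSO libraries no more often than all genes tested. The summed level of 18 T cell markers was 120, 78.1 and 73.7 RPKM in Vismodegib and 76.7, 90.4 and 73.0 RPKM in DMSO. Thy1, which is not particular to T cells, was the largest part of this sum in every library. Of the 13 tested T cell markers, 0 were highest of all 6 libraries in DMSO replicate 2. In 4 of the 13 the DMSO libraries ran in the order 2, 3, 1, a share near that of all genes tested. These were Cd8a, Thy1, Trac and Trbc1, named after their values were seen. Trbc1, a constant region of the T cell receptor beta chain, was at 34.15, 17.6 and 8.77 RPKM in Vismodegib and 4.56, 24.5 and 7.74 RPKM in DMSO. Thy1, a surface protein of T cells and of fibroblasts, was at 50.7, 34.1 and 36.7 RPKM in Vismodegib and 27.7, 39.0 and 36.2 RPKM in DMSO. The chains of the Cd3 complex ran otherwise. Cd3d, a chain of the T cell receptor complex, was at 2.87, 2.75 and 2.25 RPKM in Vismodegib and 4.53, 2.66 and 2.14 RPKM in DMSO. For Cd3d, Cd3e and Cd3g together, the sum was 6.20, 5.74 and 4.29 RPKM in Vismodegib and 7.96, 4.73 and 4.895 RPKM in DMSO, highest in the DMSO library with the least granzyme RNA. Granzyme RPKM per unit of this Cd3 sum was 11.8, 14.8 and 14.9 in Vismodegib, against 5.01, 57.2 and 22.1 in DMSO. Prf1 per unit of it was 0.232, 0.311 and 0.3995 in Vismodegib and 0.287, 0.730 and 0.6645 in DMSO, where DMSO replicate 1 lay inside the Vismodegib range.

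Among NK cell markers the defining genes were scarce in all tumours. Ncr1, which encodes the NK receptor NKp46, was at 0.39, 0.11 and 0.20 RPKM in Vismodegib and 0.12, 0.13 and 0.08 RPKM in DMSO. Klrd1, the CD94 chain of the NKG2 receptors, was at 2.44, 2.05 and 2.52 RPKM in Vismodegib and 2.83, 0.92 and 1.54 RPKM in DMSO. Klrd1 was lowest in the library with the most granzyme RNA. Ncr1 did not pass the filter on low values, and no order is read from its DMSO values. Of the 18 NK genes with a row, 5 passed the filter on low values. Of these 5, 0 were highest in DMSO replicate 2 and 3 were lowest there (23.8% over all genes tested). The DMSO libraries ran in the order 2, 3, 1 in 0 of the 5. The chemokine gene Ccl5, made by NK and T cells, was at 25.55, 17.7 and 20.01 RPKM in Vismodegib and 25.6, 30.9 and 31.3 RPKM in DMSO, without overlap (difference -0.47, SE 0.25; 0.745% of all genes tested lay below in this way). Adgrg1, known in humans as an adhesion receptor of cytotoxic cells, had all Vismodegib libraries above all DMSO libraries, as did 4.29% of all genes tested, at 2.65, 2.30 and 2.54 against 2.07, 1.25 and 1.31 RPKM. Neither passed limma's test.

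**Figure D4:**
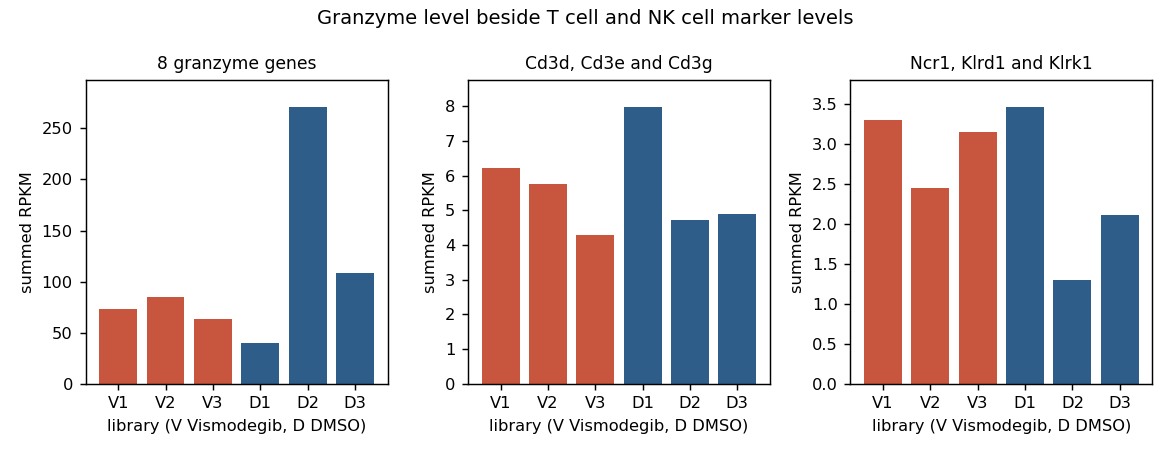
Summed RPKM of the 8 granzymes (left), of 3 T cell receptor complex genes (middle) and of 3 NK receptor genes (right) in each library, with Vismodegib in red and DMSO in blue; bars start at 0. The granzyme bar of DMSO replicate 2 stands at 270.6 RPKM, while its Cd3 bar, 4.73 RPKM, and its NK bar, 1.297 RPKM, are not the highest of their panels. The NK genes shown are Ncr1, Klrd1 and Klrk1, picked from 18 with a row, and Klrd1 makes up most of each bar.

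The rest of the granule pathway was measured through lists of partners. Of 11 tested genes for granule contents and their processing, 0 passed, with 6 differences above 0, 5 below and a median of 0.06. Srgn, the proteoglycan that packs granzymes, was at 95.5, 53.2 and 23.5 RPKM in Vismodegib and 38.2, 65.8 and 92.5 RPKM in DMSO. Nkg7, a granule membrane protein of killer cells, was at 15.2, 9.88 and 15.96 RPKM in Vismodegib and 18.3, 14.6 and 14.4 RPKM in DMSO. Neither ran in the granzymes' order. Gzmm, a granzyme of NK cells that did not pass the filter, was at 0.294, 0.0954 and 0.328 RPKM in Vismodegib and 0.653, 0.468 and 0.437 RPKM in DMSO. Its groups did not overlap in RPKM, as in 0.745% of the genes tested, which leave Gzmm out. Over its longest transcript these are about 16, 5 and 24 reads in Vismodegib and 31, 21 and 23 in DMSO. No weight is put on so small a gap. Unlike the clustered genes, Gzmm was highest in DMSO replicate 1. Of 9 tested genes of granule release, 0 passed (4 above 0, 5 below, median -0.01). Unc13d, the priming factor whose loss stops granule fusion, was at 12.96, 11.7 and 7.44 RPKM in Vismodegib and 10.8, 12.3 and 13.3 RPKM in DMSO.

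Among the inhibitors, 5 of 6 tested serpins had differences above 0 and 0 passed, with a median of 0.24. Of these, 3 were highest in DMSO replicate 2 and 1 was lowest there. Serpinb9, the inhibitor of granzyme B, was at 12.4, 7.03 and 6.72 RPKM in Vismodegib and 7.02, 2.46 and 6.31 RPKM in DMSO. Serpinb9 was the serpin lowest in the library with the most Gzmb. The 3 highest there were Serpinb6a, Serpinb1a and Serpina3g, and Serpina3g was at 17.2, 19.9 and 12.4 RPKM in Vismodegib and 9.18, 25.9 and 20.3 RPKM in DMSO. Of 15 tested genes for granzyme substrates and effectors in target cells, 0 passed (8 above 0, 7 below, median 0.10). Bid, which granzyme B cleaves to reach mitochondria, was at 7.56, 6.24 and 6.30 RPKM in Vismodegib and 7.05, 4.76 and 5.29 RPKM in DMSO.

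Upstream factors gave a mixed picture. Of 11 tested transcription factors of cytotoxic lymphocytes, 0 passed, with 5 above 0, 6 below and a median of -0.07. Of these, 6 were lowest in DMSO replicate 2, where 23.8% of all genes tested had their lowest value. Eomes, a T-box factor that drives Prf1 and Gzmb in mice, was at 0.890, 1.34 and 0.336 RPKM in Vismodegib and 0.688, 0.870 and 1.05 RPKM in DMSO. Of 12 tested cytokines and receptors of these cells, 0 passed (5 above 0, 7 below, median -0.02) and 4 were highest in DMSO replicate 2. Il2rb, the receptor chain shared by interleukins 2 and 15, was at 6.08, 6.11 and 2.44 RPKM in Vismodegib and 2.77, 2.89 and 4.61 RPKM in DMSO. Of 13 interferon gamma targets, 10 were below 0 (41.6% over all genes tested) with a median of -0.16, 5 were highest in DMSO replicate 2 and 0 passed. Irf1, a transcription factor induced by interferon, was at 71.4, 67.6 and 67.85 RPKM in Vismodegib and 79.1, 83.6 and 99.8 RPKM in DMSO (difference -0.34, SE 0.24). It was the 1 of 13 with all Vismodegib libraries below all DMSO libraries, against 0.745% of all genes tested.

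Lists for other cells that could carry granule proteases were examined for the same reason. Of 10 tested mast cell and basophil markers, 4 were above 0 and 6 below, with a median of -0.06, and 1 was highest in DMSO replicate 2. Their summed level ran from 22.2 to 71.0 RPKM in Vismodegib and from 28.7 to 79.15 RPKM in DMSO. Among 4 myeloid serine proteases, Ctsg was the granzymes' neighbour described above and 1, Prtn3, passed the filter, with a difference of 0.76. Medians were -0.21 over 7 macrophage genes, -0.31 over 6 neutrophil genes, -0.46 over 2 B cell genes, -0.13 over 4 genes of plasmacytoid dendritic cells and 0.51 over 8 epithelial tumour cell genes, and 0 members of these lists passed. In the epithelial list, Krt7, Cldn4 and Elf3 (3 of 8) had all Vismodegib libraries above all DMSO libraries, as had 4.29% of all genes tested. Whether the share of tumour cells bears on the granzyme levels was not tested.

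Other features of DMSO replicate 2 moved with its granzyme values. Transcripts of the mitochondrial genome took up 4.14%, 3.68% and 2.62% of the RPKM sum in Vismodegib and 3.89%, 1.099% and 1.90% in DMSO, lowest where the granzymes were highest. Since granzyme transcripts are short, 708 tested genes with lengths and GC contents in a range around those of Gzmb to Gzmg were set beside them. Their median deviation from the gene mean was 0.28 log2 units in DMSO replicate 2 and between -0.28 and 0.20 in the other 5 libraries. For Gzmc to Gzmg the median deviation was 2.12 in DMSO replicate 2, 0.68 in DMSO replicate 3 and -0.82 in DMSO replicate 1, and -0.65, -0.45 and -0.76 in Vismodegib replicates 1, 2 and 3.

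Genes outside the set were ranked by how closely they followed the median profile of Gzmc to Gzmg, as the mean absolute difference of centred log2 values over the 6 libraries. Among the closest of those tested were Psat1, Slc12a4, Pold4, Col18a1, Asns, Ppp2r5b, Gm4366, Igkv10-94 and Steap1, at 0.209 to 0.279 log2 units. None of these 9 is a lymphocyte granule gene. Psat1, an enzyme of serine synthesis, was at 4.24, 3.69 and 3.125 RPKM in Vismodegib and 1.845, 21.6 and 7.82 RPKM in DMSO. Asns, asparagine synthetase, was at 5.14, 6.34 and 5.98 RPKM in Vismodegib and 6.27, 22.6 and 14.2 RPKM in DMSO. The 5 genes closest to Prf1 were Prps1l3, Pcgf5, Gm16845, Pmvk and Slc25a28, at 0.086 to 0.128 log2 units. Pmvk, phosphomevalonate kinase of sterol synthesis, was at 18.55, 19.1 and 19.3 RPKM in Vismodegib and 18.0, 32.6 and 32.8 RPKM in DMSO. Within the set, Gzmk and Prf1 had the smallest difference, 0.235, followed by Gzma and Gzmb at 0.259, and Gzmf and Gzmg differed by 0.376. Among all genes tested, Gzmb was only the 165th closest to Gzma, and Gzma the 184th closest to Gzmb. Gzmk averaged 0.4285 RPKM, less than the 0.5 RPKM added before taking logs, which flattens its profile. In RPKM, Gzmk was lower in DMSO replicate 3 (0.267) than in DMSO replicate 1 (0.442). Prf1 was higher there, at 3.25 against 2.28. Gzmd and Gzme, the pair most alike in coding sequence, differed by 0.689.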

How the data were processed

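RNA of tumours was sequenced in 3 Vismodegib and 3 DMSO libraries, read as pairs of 150 bases. RPKM values were deposited by the authors, 1 column per library, and were matched to samples by title. The submitters' processing notes name the mm10 build and Partek, SAMtools, HISAT2, STAR, cutadapt and bcl2fastq 2.17. What each tool did, the annotation and how strand was used are not stated there.

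The 11818 genes averaging 0.5 RPKM or more were fitted with limma 3.58.1 (R 4.3.3), on log2 values after adding 0.5 RPKM (eBayes with a trend, group as the only term, two-sided, Benjamini-Hochberg over all genes tested, threshold 0.05), after the steps had been tested on simulated data. Library totals came from 6992 genes with 1 transcript, and with them 84.3% to 85.6% of values up to 20 reads were whole within 0.02 reads. Floors of 3 reads cover counting error only. Of 202 members of 16 gene lists, 195 had a row, 1 through a synonym in the RefSeq gene table. Genes and lists were chosen with earlier results of these data known. Named were the 9 members, Gzmm and Gzmn, up to 4 genes per list in listed order, genes of a list whose groups did not overlap, and the genes closest in pattern (10 to Gzmc to Gzmg, of which 1 is not reported here, and 5 to Prf1). Outside this rule, Mcpt1, Mcpt8, Cma2, Cd8a, Thy1, Trac, Trbc1, Serpinb6a, Serpinb1a, Serpina3g, Il15, Il18rap, Ido1, Fth1, Trip13 and Gmnn were chosen after their values were seen. The rest of the 10 genes closest to Gzma are named for completeness. The 5 motifs and the length and GC limits were also set after the data were seen. Coding identity was taken from global alignments in Biopython 1.88. Alternatives covered the pseudocount, the filter, scaling, the trend, a replicate block and each library left out.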

Additional observations from a re-analysis of the deposited data

How the results depend on the processing

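Under pseudocounts of 0.1 and 1, no filter, a filter of 2 RPKM, median-ratio and quantile scaling and eBayes without a trend, 0 genes passed limma's test, as in the fit described (266 at an unadjusted p under 0.05), and all members that were tested had differences below 0. The median of the members ran from -0.69 to -0.555 over these settings. With the replicate number as a block, 1 gene passed, and it was not a member. The labels do not say whether the numbers pair the libraries. Correlations of the deviations across genes were 0.003, 0.038 and -0.305 for numbers 1, 2 and 3, and between -0.231 and 0.303 for unlike numbers. With 3 libraries per group these cannot settle whether the numbers pair, so the block is not read further. Leaving out 1 library at a time gave 0 to 19 genes, a median of -1.02 to -0.16 for the members, and -1.96 to -0.34 for Gzmc to Gzmg. The single differences ran from -0.84 to 0.36 for Gzma, -1.196 to 0.021 for Gzmb, -0.76 to 0.14 for Gzmc, -1.96 to -0.34 for Gzmd, -0.50 to 0.37 for Gzme, -3.47 to -1.02 for Gzmf and -4.12 to -1.84 for Gzmg. The cause was not tested. Of the companion list members, 0 passed under every alternative run. Gzmk, without the filter, had a difference of -0.29. Gzmn and Ctsg were near the floor of 3 reads, where no difference can be seen at this depth.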

Other observations

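Il15, the cytokine that sustains NK and memory CD8 T cells, was the 4th closest of all tested genes to Gzmb in its pattern over the 6 libraries, a position noticed after the values were seen. Il15 was at 2.96, 2.45 and 1.685 RPKM in Vismodegib and 1.24, 7.375 and 3.47 RPKM in DMSO, with a mean absolute difference of 0.121 log2 units from Gzmb. The gene closest to Gzmb was Fth1, the ferritin heavy chain, at 488.5, 323 and 305 RPKM in Vismodegib and 197, 1030 and 544 RPKM in DMSO. For Gzma, the 10 closest genes included Trip13 and Gmnn, which act in mitosis and in the control of DNA replication, at 0.124 and 0.131 log2 units. They ranked 5th and 7th. The others were Gm13456, Gm15501, Bex3, Gm7993, Gm14165, Hagh, Rpl29 and AI413582, and no link to cell division is read from this list.

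Il18r1, the receptor subunit for interleukin 18, a cytokine that acts on NK and T cells, differed between the groups in the direction opposite to the granzymes. It was at 2.23, 3.46 and 3.79 RPKM in Vismodegib and 0.998, 1.096 and 1.01 RPKM in DMSO, without overlap (4.29% of all genes tested), with a log2 difference of 1.23 (SE 0.26) that did not pass limma's test. Its partner chain Il18rap was at 2.69, 3.60 and 2.99 RPKM in Vismodegib and 1.77, 5.87 and 6.11 RPKM in DMSO, so the groups overlapped through DMSO replicate 1. Ido1, an enzyme of tryptophan breakdown that interferon gamma induces, was at 6.33, 4.59 and 2.34 RPKM in Vismodegib and 1.17, 33.4 and 16.9 RPKM in DMSO. Its DMSO libraries thus ran in the order of most granzymes, which held in 33.5% of all genes tested.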
